A study of Mus musculus with 6 samples.

Results

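The insulin-like growth factor (IGF) axis was followed across 10 genes: the ligand genes Igf1 and Igf2, the receptor genes Igf1r and Igf2r, and the binding protein genes Igfbp2, Igfbp3, Igfbp4, Igfbp5, Igfbp6 and Igfbp7. The members were all probes that the platform annotation assigns to these symbols, 24 of 45281 probes and 10 of 19057 named genes. They were measured in mouse embryonic stem (ES) cells on 6 Illumina mouse expression arrays, of which 3 hold the labelled controls and 3 hold cells electroporated with a pHYPER vector for short hairpin RNA against Chd4 (shChd4), the ATPase of the NuRD remodelling complex. All cultures in both groups grew with leukemia inhibitory factor and 15% serum on a layer of mouse embryonic fibroblasts blocked with mitomycin C, and were under puromycin from 24 h after transfection for 48 h. The labels give no strain, clone or content of the control vector and do not say whether feeder cells were removed. The codes in the sample titles share their leading number within a group and differ in it between the groups. The labels do not say what this number is. If it marks a chip, chip and group cannot be told apart. Replicates are numbered only as names. The labels do not say whether they were grown separately. The p-values therefore cover the spread among these 6 arrays alone, and this may be technical.

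IGF1 and IGF2 are secreted growth factors that activate the tyrosine kinase receptor encoded by Igf1r, which signals through PI3K, Akt and mTOR. The product of Igf2r does not signal in that way: it is the mannose-6-phosphate receptor that carries lysosomal enzymes to the lysosome and removes IGF2 from the cell surface. Igf2 and Igf2r are imprinted in the mouse, Igf2 being read from the paternal and Igf2r from the maternal allele. The binding proteins hold IGFs outside the cell and set how much reaches the receptor, and several also bind matrix. In human ES cell cultures, fibroblast-like cells are a known source of IGF2.

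After shChd4 the transcripts of Igf2, both receptors, Igfbp5 and Igfbp7 rose, and that of Igfbp2 fell. Igfbp7 moved most, by 14.5-fold. Igfbp5 (4.62-fold) and Igf2 (4.35-fold) came next, in an order that the background step sets, as Igfbp5 was near background in controls, while Igfbp2 fell to 57.2% of its control intensity. Igf1, Igfbp3 and Igfbp4 did not pass the test, and Igfbp6 was too dim to be tested. Thus 9 of the 10 genes passed the detection filter and 6 of them were called, 5 higher and 1 lower, at an adjusted p under 0.05. Of all 9808 genes tested, 38.1% were called, 19.9% higher and 18.2% lower. Since Igfbp5 was detected on 1 control array and passed the filter through its shChd4 arrays, these counts over the tested members depend in part on that filter.

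The RefSeq promoter table (GRCm38.p6) held windows for all 10 genes, 14 windows in all, and the 250 bases before the annotated start are shown for Igfbp7, the gene that rose most, for Igf2r, the receptor gene that rose more, and for the neighbouring pair Igfbp5 and Igfbp2, which moved in opposite directions. Capitals mark matches on either strand to the GC box GGGCGG, the TATA box TATAAA, the CCAAT box CCAAT or the AP-1 site TGACTCA, and each sequence reads 5′ to 3′ on the strand of its gene.
Igfbp7, chr5:77408046-77408295, minus strand: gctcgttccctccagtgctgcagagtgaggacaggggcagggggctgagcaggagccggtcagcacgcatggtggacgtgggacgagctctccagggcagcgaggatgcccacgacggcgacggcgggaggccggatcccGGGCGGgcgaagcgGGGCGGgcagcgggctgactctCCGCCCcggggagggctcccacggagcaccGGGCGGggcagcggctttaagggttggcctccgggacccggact
Igf2r, chr17:12769707-12769956, minus strand: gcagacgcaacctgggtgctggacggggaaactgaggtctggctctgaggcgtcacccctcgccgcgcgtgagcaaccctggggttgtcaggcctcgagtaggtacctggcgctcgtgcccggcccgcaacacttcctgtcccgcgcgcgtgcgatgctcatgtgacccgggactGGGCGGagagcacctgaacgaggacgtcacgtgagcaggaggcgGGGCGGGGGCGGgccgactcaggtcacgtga
Igfbp5, chr1:72874866-72875115, minus strand: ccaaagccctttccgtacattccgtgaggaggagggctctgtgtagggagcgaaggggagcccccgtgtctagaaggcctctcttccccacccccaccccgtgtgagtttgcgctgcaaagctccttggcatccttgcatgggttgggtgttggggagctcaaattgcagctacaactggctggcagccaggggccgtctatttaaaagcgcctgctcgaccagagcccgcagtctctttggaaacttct
Igfbp2, upstream start, chr1:72824230-72824479, plus strand: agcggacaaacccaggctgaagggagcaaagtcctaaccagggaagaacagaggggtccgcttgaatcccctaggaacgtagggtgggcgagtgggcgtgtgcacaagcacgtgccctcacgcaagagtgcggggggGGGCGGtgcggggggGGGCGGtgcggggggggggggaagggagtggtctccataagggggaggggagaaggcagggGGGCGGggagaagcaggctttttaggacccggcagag
The Igfbp7 window held 4 GC boxes, the Igf2r window 3, of which 2 abut each other, the Igfbp2 window 3 and the Igfbp5 window 0. A GC box was present in 32.7% of all 32851 windows of this length. TATA, CCAAT and AP-1 letters were absent from these 4 windows; over all windows they were present in 12.4%, 33.8% and 4.46%. The second annotated Igfbp2 start, not printed, had 0 GC boxes and 1 AP-1 match in its window. The CpG count was 26 for Igfbp7, 27 for Igf2r, 14 for Igfbp2 and 10 for Igfbp5, against a median of 6 over all windows. Among tested members not called it was 32 for Igfbp3, 22 for Igfbp4 and 5 for Igf1, so a high count was not limited to the genes called. GC boxes were thus present in windows of genes that rose and of the gene that fell. A match describes these letters only, and no factor was measured. Igf2 has 4 annotated starts and Igfbp2 has 2, and the arrays do not say which start was used.

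The 6 arrays detected 34.9% to 35.6% of all probes in controls and 37.7% to 38.7% after shChd4, at a detection p under 0.05. Chd4 itself fell to 24.3% of control on its brightest probe and to 27.6% and 41.8% on its further tested probes. All 14 listed ES cell markers were detected on all 6 arrays, though not all were bright. Fgf4 had a mean log2 intensity of 6.92 in controls and 5.39 after shChd4. Of 24 listed fibroblast markers, which belong to the feeder cell type, 19 were tested, and 16 rose and 0 fell; 4 of the 16 were undetected in all controls and entered the test only through their shChd4 arrays. Their summed normalised intensity was 1681 to 2997 on the control arrays and 13053 to 18227 on the shChd4 arrays. Col3a1, Col5a2, Fap and Postn of that list were detected on too few arrays to be tested, and Fbn1 was not analysed here. Fewer cells of a type and less RNA per cell cannot be told apart in such bulk samples.

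**Figure D1:**
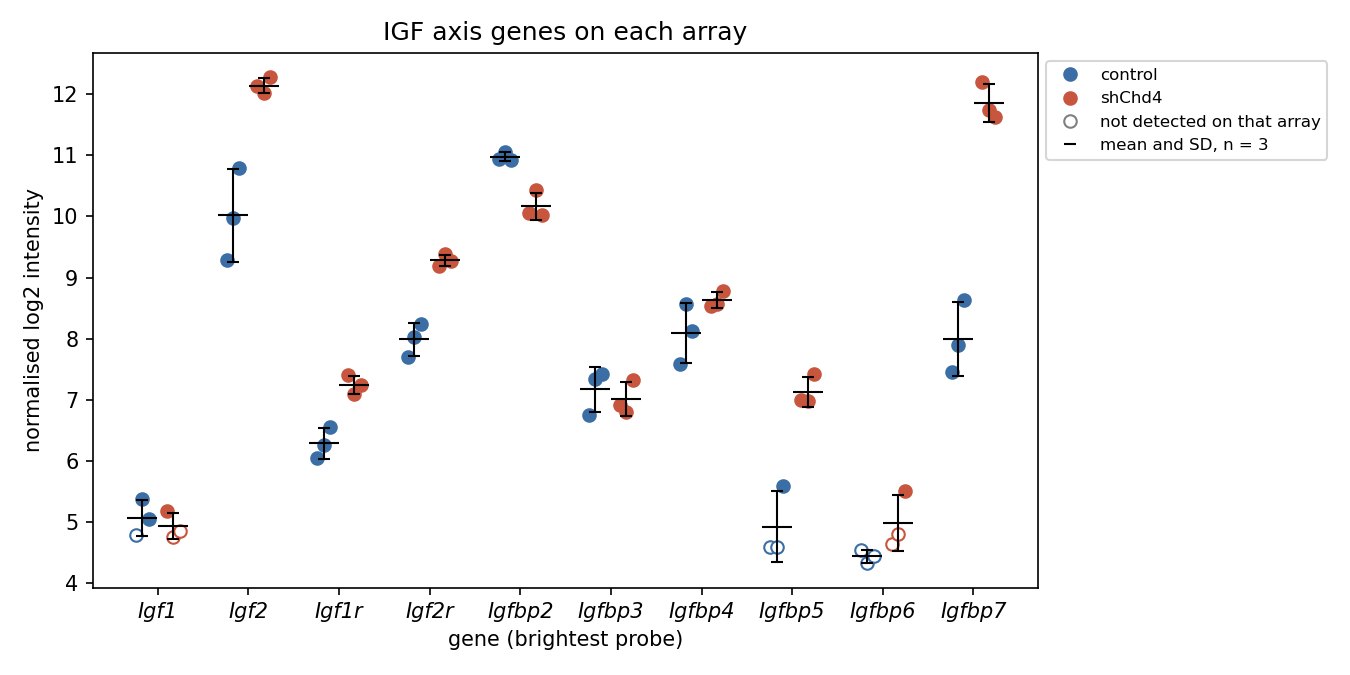
Normalised log2 intensity (vertical axis) of the brightest probe of each of the 10 IGF axis genes (horizontal axis) on the 3 control arrays (blue) and the 3 shChd4 arrays (red), with the mean and SD; open circles are arrays where the probe was not detected. The groups lie apart without overlap for Igf2, Igf1r, Igf2r, Igfbp2, Igfbp5 and Igfbp7 among the genes tested, and Igf1 and Igfbp6 lie close to the lower end of the scale.

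Among the ligands, Igf2 rose. Its only probe gave normalised log2 intensities of 9.28, 9.97 and 10.79 on control replicates 1, 2 and 3 and 12.12, 12.02 and 12.27 on shChd4 replicates 1, 2 and 3. Every shChd4 array lay above every control array, and control replicate 3 was the highest of a widely spread control group. The log2 fold change was 2.12 ± 0.30 (moderated standard error, SE; n = 3 per group; limma adjusted p = 0.000317), and leaving out control replicate 1 or 3 gave 1.75 or 2.51. This was the rise of rank 172 among the 9808 genes tested.

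Igf1 sat near background. Its brightest probe was detected on 2 control arrays and 1 shChd4 array, with log2 intensities of 4.79, 5.38 and 5.06 in controls and 5.18, 4.76 and 4.86 after shChd4. The groups overlapped, and the log2 change of -0.14 ± 0.19 (SE) did not pass (limma adjusted p = 0.602). The second Igf1 probe was detected on 1 array. A change in Igf1 was therefore not detectable at this signal, which does not show that there was none.

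Both receptor genes rose. Igf2r stood at log2 7.70, 8.02 and 8.24 in the 3 controls and at 9.19, 9.38 and 9.27 after shChd4. The shChd4 arrays lay close together, and the groups did not overlap. The log2 fold change was 1.29 ± 0.17 (SE), or 2.45-fold (limma adjusted p = 0.000219). A second Igf2r probe, tested in a fit over all 14610 detected named probes, rose by 1.17 ± 0.18 (SE; limma adjusted p = 0.000489). Both probes of Igf2r thus gave a rise of similar size.

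Igf1r, the signalling receptor gene, was dimmer. Its brightest probe gave 6.06, 6.26 and 6.56 in controls and 7.40, 7.10 and 7.24 after shChd4, again without overlap. The log2 fold change was 0.95 ± 0.17 (SE), or 1.94-fold (limma adjusted p = 0.00164). Without background correction it was 0.47 and still called, and with the authors' own normalised values it was 0.51. A second probe detected on all 6 arrays rose by 0.54 ± 0.16 (SE; limma adjusted p = 0.0219 in the probe fit). That call was lost without control replicate 2 (adjusted p = 0.0687), control replicate 3 (0.0793) or shChd4 replicate 2 (0.0547), and under both of the settings just named (0.0573 and 0.0556). Of the other Igf1r probes, 1 was detected on 2 arrays and 1 on 0 arrays.

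The binding protein genes moved in different directions. Igfbp7, whose product binds IGFs with low affinity and associates with vascular and fibroblast matrix, rose from log2 7.45, 7.90 and 8.63 in the controls to 12.20, 11.75 and 11.62 after shChd4. The lowest shChd4 array lay far above the highest control, and control replicate 3 was again the highest control. The log2 fold change was 3.86 ± 0.27 (SE; limma adjusted p = 3.67e-06), the rise of rank 19 among all genes tested. Only this Igfbp7 probe of 5 was detected; the other 4, assigned to the same gene, were not detected on any array of either group, so the value rests on 1 probe.

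Igfbp5, whose product binds to extracellular matrix, rose on all 3 of its probes. The brightest gave 4.59, 4.60 and 5.60 in controls, of which only replicate 3 reached detection, and 7.0, 6.99 and 7.42 after shChd4. All shChd4 arrays were detected and lay above all controls. The log2 fold change was 2.21 ± 0.26 (SE; limma adjusted p = 8.93e-05), the rise of rank 156. With a control group near background the size depends on the background step: it was 0.85 without background correction, 0.93 with the authors' values and 1.42 with a larger offset of 50, all still called. Under these settings Igf2 changed by 2.00, 2.02 and 2.08, above Igfbp5, and without background correction or with the authors' values Igf2r (1.00 and 1.04) was above Igfbp5 too. The other Igfbp5 probes stayed below detection in all 3 controls and were higher after shChd4 by at least 2.48-fold and 2.02-fold, respectively (limma adjusted p = 3.44e-05 and 6.33e-05 in the probe fit). Such a bound sets the mean shChd4 signal against the lowest signal that counts as detected on the control arrays. These further Igfbp5 probes entered the test only through their shChd4 arrays, so their calls are fixed in part by the filter and add little to that of the brightest probe.

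Igfbp2, whose product is a binding protein of fetal tissues that prefers IGF2, was the binding protein gene that fell. Its controls read log2 10.93, 11.05 and 10.92, and its shChd4 replicates 10.05, 10.42 and 10.02. The controls lay close together and above all shChd4 arrays, among which replicate 2 was the highest. The log2 fold change was -0.81 ± 0.16 (SE; limma adjusted p = 0.00291). The second Igfbp2 probe changed by -0.54 ± 0.17 (SE; limma adjusted p = 0.0294 in the probe fit), a call that was lost without control replicate 1 (adjusted p = 0.0612), control replicate 3 (0.0994) or shChd4 replicate 3 (0.107). In RefSeq, Igfbp2 and Igfbp5 are neighbouring protein-coding genes on chromosome 1, so this adjacent pair moved in opposite directions.

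Igfbp4, whose product is the main substrate of the protease encoded by Pappa, did not pass. Its log2 intensities were 7.59, 8.56 and 8.13 in controls and 8.54, 8.57 and 8.79 after shChd4, and control replicate 2 reached into the shChd4 range. The log2 change was 0.54 ± 0.23 (SE; limma adjusted p = 0.0833). It passed without control replicate 2 (0.77, adjusted p = 0.0207) and with median scaling in place of quantile normalisation (0.56, adjusted p = 0.0464), and ranged from 0.28 to 0.77 over 16 alternatives. The second Igfbp4 probe changed by 0.50 ± 0.27 (SE; limma adjusted p = 0.164 in the probe fit).

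Igfbp3, the main IGF carrier in serum, overlapped between groups. Its log2 intensities were 6.75, 7.33 and 7.42 in controls and 6.92, 6.80 and 7.32 after shChd4, with a change of -0.16 ± 0.21 (SE; limma adjusted p = 0.600). Its second probe, also detected on all arrays, changed by 0.16 ± 0.17 (SE; limma adjusted p = 0.479 in the probe fit), so the probes differ in sign and neither passed. Igfbp6, whose product prefers IGF2, was detected on shChd4 replicate 3 alone. Its log2 intensities were 4.55, 4.33 and 4.44 in controls and 4.65, 4.80 and 5.50 after shChd4, and no fold change is given.

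**Figure D2:**
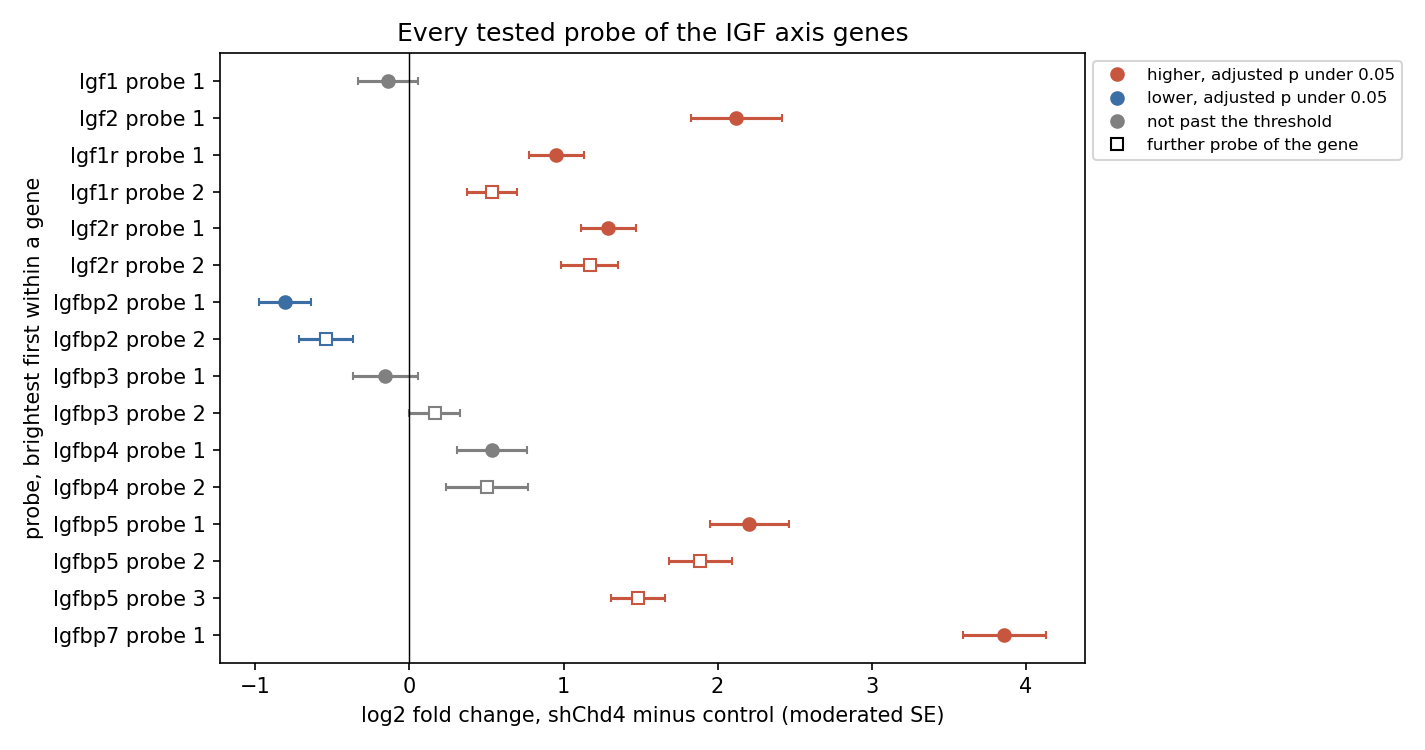
Log2 fold change, shChd4 minus control, with its moderated SE (horizontal axis) for each of the 16 tested probes of the IGF axis genes (vertical axis); filled circles are the brightest probe of a gene, open squares its further probes, and colour marks the test result in the probe fit. The probes of Igf1r, Igf2r and Igfbp5 lie to the right of 0 and those of Igfbp2 to the left, while the Igfbp3 probes lie on either side.

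Over all 24 probes, 16 were tested; 9 were called higher, 2 lower and 5 were not called. Of the 9, 2 Igfbp5 probes were undetected in all controls and entered the test only through their shChd4 arrays, so the count of rises depends in part on the filter. In the same probe fit 36.0% of all probes tested were called, 17.5% higher and 18.5% lower. Among the 9 genes tested, the control and shChd4 arrays did not overlap for 6, against 50.3% of all genes tested. A rise of at least 2-fold that passed the test was found for 4 members, and for 8.81% of all genes tested. The median log2 change of the 9 genes, that of Igf1r, was 0.95, beside -0.05 over all genes tested. It was 0.47 without background correction, and 0.75 over all 10 members without a detection filter.

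The called members were read beside the cell type markers on each array. The mean log2 intensity of the 19 tested fibroblast markers was 5.67, 6.17 and 6.22 in the controls and 8.66, 8.37 and 8.69 after shChd4. Of these markers, 5 were undetected in all controls and passed the filter only through their shChd4 arrays. The gap between the groups in this mean therefore depends in part on the filter. Igf2, Igf1r, Igf2r, Igfbp5 and Igfbp7, the members that rose, were each lowest on control replicate 1 and highest on control replicate 3 among the controls, the same arrays where the fibroblast mean was lowest and highest. Igfbp3, which was not called, had that order too, as did the signalling gene Tsc1, which fell (6.38, 6.43 and 6.56 in the controls). This order was thus not limited to the members that rose. The share of all genes with this order was not counted. Among the shChd4 arrays, Igf2, Igf1r and Igfbp5 were lowest on replicate 2, as the fibroblast mean was, whereas Igf2r was highest there and Igfbp7 was lowest on replicate 3. The part of fibroblast RNA in these rises was not tested.

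Igfbp2 fell, as most of the ES cell markers did. Of 14, 9 fell (64.3%, beside 18.2% of all genes tested) and 0 rose, with a median of -0.93. The smallest p-values were those of Gdf3 (log2 change -1.71), Tcl1 (-1.20) and Fgf4 (-1.52, or -0.60 without background correction). The 5 not called were Sox2 (-0.57), Esrrb (-0.52), Sall4 (-0.27), Dppa5a (-0.03) and Lefty1 (0.11). The mean log2 intensity of the 14 was 10.94, 10.91 and 10.82 in the controls and 9.92, 10.36 and 9.90 after shChd4. Their summed intensity was 64522 to 67622 in controls and 49422 to 56233 after shChd4. Both the ES mean and Igfbp2 were highest on replicate 2 among the shChd4 arrays. Among the controls their order differed, the ES mean being highest on replicate 1 and Igfbp2 on replicate 2, while both were lowest on replicate 3. The controls of each lay close together, so this order carries little weight. The part of the ES share in the fall of Igfbp2 was not tested.

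**Figure D3:**
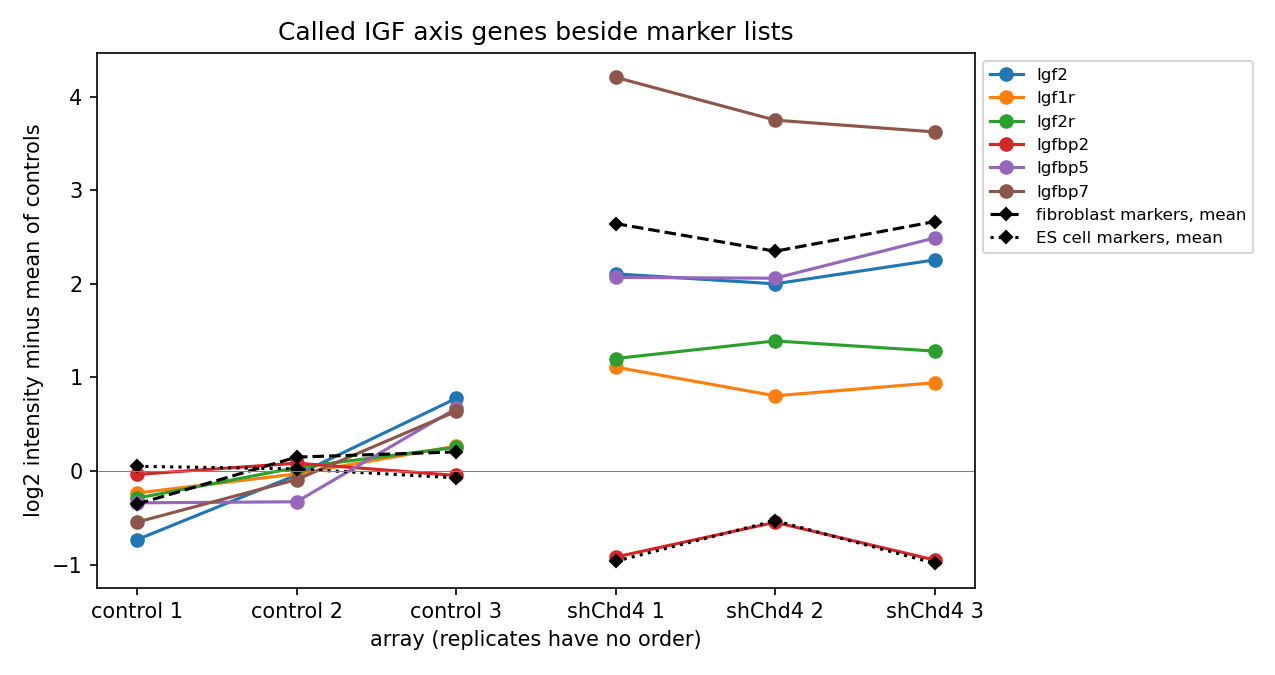
Log2 intensity minus the mean of the 3 controls (vertical axis) for the 6 called IGF axis genes (coloured circles) and for the mean of 19 fibroblast markers (dashed, diamonds) and of 14 ES cell markers (dotted, diamonds) on each array (horizontal axis); lines join arrays of a group only to guide the eye. Igf2 and Igfbp5 lie below the fibroblast line on the shChd4 arrays, Igfbp7 lies above it, and Igfbp2 lies on the ES cell line. Of the 19 fibroblast markers, 5 were undetected in all controls and passed the filter only through their shChd4 arrays.

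Markers of other cell types were in part below detection, and the changes of the dim ones (Esam, Vwf, Gata6) were smaller by over 1.5 times without background correction (0.73, -0.39 and 0.34) but still called. Of 9 macrophage markers, 4 were tested and 3 were called higher: Lyz2 (at least 3.61-fold), Cd14 (at least 1.70-fold) and Fcer1g. The bound for Fcer1g was 1.00-fold, and its call was lost in 1 of 14 alternatives. Csf1r changed by -0.02 on the log2 scale and was not called. Ptprc, Adgre1, Tyrobp and Itgam were detected on too few arrays. The summed intensity was 90.9 to 106 in controls and 198 to 266 after shChd4. All 3 macrophage markers that rose, and Tagln among the smooth muscle markers, were undetected in all controls and entered the test only through their shChd4 arrays, so these counts are fixed in part by the filter. Of 7 smooth muscle markers, 3 were tested, and Acta2 (1.80) and Tagln (at least 1.68-fold) rose. The third, Des, changed by -0.43 on the log2 scale and was not called (limma adjusted p = 0.0908), except in 1 of 16 alternatives. The sums of the 3 were 723 to 1450 in controls and 2979 to 4130 after shChd4. Myh11, Cnn1, Mylk and Rgs5 were not detected on enough arrays. Of 9 visceral endoderm markers, Amn (1.87) and Gata6 (1.09) rose and the other 7, among them Afp, Alb and Ttr, were not detected on enough arrays; their sums were 137 to 163 and 384 to 783. Of 9 endothelial markers, 5 were tested, Esam rose by 1.35 and Vwf fell by 1.18 on the log2 scale, with sums of 1404 to 1657 and 1432 to 1745 and with Cdh5, Kdr, Tie1 and Emcn not detected on enough arrays. Of 8 myoblast markers, 2 were tested and 0 were called, with sums of 292 to 303 and 222 to 281. The part of these cell types in the IGF values was not tested.

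Other carriers and relatives of the axis were taken from lists of pathway genes, chosen with earlier results known. Each list's share of called genes is read beside the 19.9% higher and 18.2% lower of all genes tested. The CCN genes encode matricellular proteins once counted as IGFBP-related. Of 6 listed, 4 were tested and all 4 rose: Ccn4 by 3.39 ± 0.26 (SE; limma adjusted p = 6.03e-06), Ccn5 by 2.59, Ccn2 by 2.53 and Ccn1 by 2.19 on the log2 scale. Ccn2 was bright in both groups, and its further probe rose by 3.15; Ccn5 was detected on 1 control array and Ccn1 and Ccn4 on 2. The list's median was 2.56. With detection required on all 6 arrays, 1 of the 4 remained testable. Without background correction the log2 changes of the dimmer 3 were smaller, 1.86 for Ccn4, 1.18 for Ccn5 and 0.91 for Ccn1, and all were still called. The fibroblast mean rose on the same arrays, and its part in the CCN values was not tested.

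Of 7 insulin family and further carrier genes, 3 were tested, and the insulin receptor gene Insr rose by 0.92 ± 0.17 (SE; limma adjusted p = 0.00164). Without background correction the Insr change was 0.37 and still called. Igfals, which encodes the acid-labile subunit of the serum IGF complex, changed by 0.35 (adjusted p = 0.190, limma), and Igfbpl1 by -0.29 (adjusted p = 0.195, limma). Ins2, Insrr and Igfbp1 were not detected on enough arrays. The median of the 3 was 0.35, and with 3 genes tested the share called has little weight.

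Of 10 proteases of the binding proteins and their inhibitors, 6 were tested, 3 rose and 0 fell; 2 of the 3, Stc1 and Pappa, entered the test only through their shChd4 arrays, so the count is fixed in part by the filter and is not read against the 19.9% of all genes. The serine protease gene Htra1 rose by 0.96 ± 0.16 (SE; limma adjusted p = 0.00111), and its further probe by 1.12. Stc1, an inhibitor of the Pappa protease, and Pappa itself stayed below detection in all controls and were higher by at least 1.34-fold and 1.24-fold; the Pappa call was lost without background correction (adjusted p = 0.106), with the authors' values (0.0970) and with an offset of 50 (0.0600). Adam28 changed by -0.18 (limma adjusted p = 0.489). The median was 0.30, or 0.15 with the undetected genes at their bound.

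Among regulators of IGF transcripts, 4 of 10 genes were tested and 1 of them fell (25% of those tested, beside 18.2% of all genes). This was Igf2bp3, which encodes an RNA-binding protein of Igf2 mRNA and changed by -1.37 ± 0.16 (log2, SE; adjusted p = 8.52e-05, limma). Of its 4 further probes, the brighter pair changed by -1.22 each and the dimmer pair by -0.43, which was not called, and -0.54, which was. Its paralog Igf2bp1 changed by -0.23, Ctcf by -0.20 and Lin28a by -0.21, and none of these passed (limma adjusted p = 0.364, 0.322 and 0.641). The median was -0.22. Igf2 mRNA and this binding protein gene thus moved in opposite directions.

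Downstream of the receptor, 24 of 33 signalling genes were tested, with 7 higher, 1 lower and a median of 0.29. Inppl1, a lipid phosphatase gene that opposes PI3K, rose by 1.06 ± 0.17 (SE; limma adjusted p = 0.000727). Pik3r1, the regulatory subunit gene of PI3K, rose by 0.80, and Rictor, a subunit gene of mTOR complex 2, by 0.93, although a further dim Rictor probe changed by -0.20 and the mean of its probes did not pass (0.37, adjusted p = 0.0629 in limma). Tsc1, an inhibitor of mTOR complex 1, fell by 0.82 on the log2 scale. A further Tsc1 probe changed by -0.46 and was not called (limma adjusted p = 0.0653 in the probe fit). Without background correction, Pik3r1 changed by 0.36 and Tsc1 by -0.31, both still called. The 7 rises are 29.2% of the genes tested in this list and the fall 4.17%, beside 19.9% and 18.2% of all genes.

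Of 17 FoxO target genes, which IGF and insulin signalling represses through Akt, 11 were tested, with 7 higher, 1 lower and a median of 0.80. These are 63.6% and 9.09% of the genes tested, beside 19.9% and 18.2% of all genes. Bcl6 rose by 2.02 ± 0.19 (SE; limma adjusted p = 1.80e-05), Trp53inp1 by 1.21, Fbxo32 by 0.99 and Cited2 by 0.90. A dimmer Fbxo32 probe, undetected in all controls, changed by 0.30 and was not called. Dimmer Cited2 probes changed by 0.77, which was called, and 0.26, which was not. Without background correction, Bcl6 changed by 1.18 and Fbxo32 by 0.31, both still called. Insr and Irs2 belong to this list and to those above. No FoxO activity was measured.

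The mannose-6-phosphate route, which Igf2r serves, had 5 rises and 3 falls among 20 tested genes of 22, with a median of 0.10. At 25% and 15% of the genes tested, these shares lie near the 19.9% and 18.2% of all genes, so the counts are no result about the route. The lysosomal protease gene Ctsb rose by 1.46 ± 0.18 (SE; limma adjusted p = 0.000133) and the acid glucosidase gene Gaa by 0.86, while the lysosomal mannosidase gene Manba fell by 1.89 and the sorting adaptor gene Gga2 by 0.77 on the log2 scale. A further Manba probe changed by -2.18. M6pr, the other mannose-6-phosphate receptor gene, was tested and not called.

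Of 17 listed genes around Igf2 and Igf2r, 8 were tested, with 2 higher, 1 lower and a median of 0.12. These shares, 25% and 12.5%, lie near those of all genes. Phlda2, an imprinted gene of the same chromosomal region as Igf2, changed by -1.51 ± 0.19 (log2, SE; adjusted p = 0.000133, limma), a fall, and Cd81 rose by 0.98. Slc22a18 changed by 0.63 (limma adjusted p = 0.0420), a call lost in 10 of 15 alternatives, among them leaving out any 1 array other than control replicate 2 (log2 changes of 0.38 to 0.70), and Tspan32 did not pass. H19 and Airn, the noncoding RNA genes beside Igf2 and Igf2r, were not analysed here. The rise of Igf2 was therefore accompanied by a fall of Phlda2 and by no call for Cdkn1c, Tssc4, Nap1l4 or Ascl2.

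**Figure D4:**
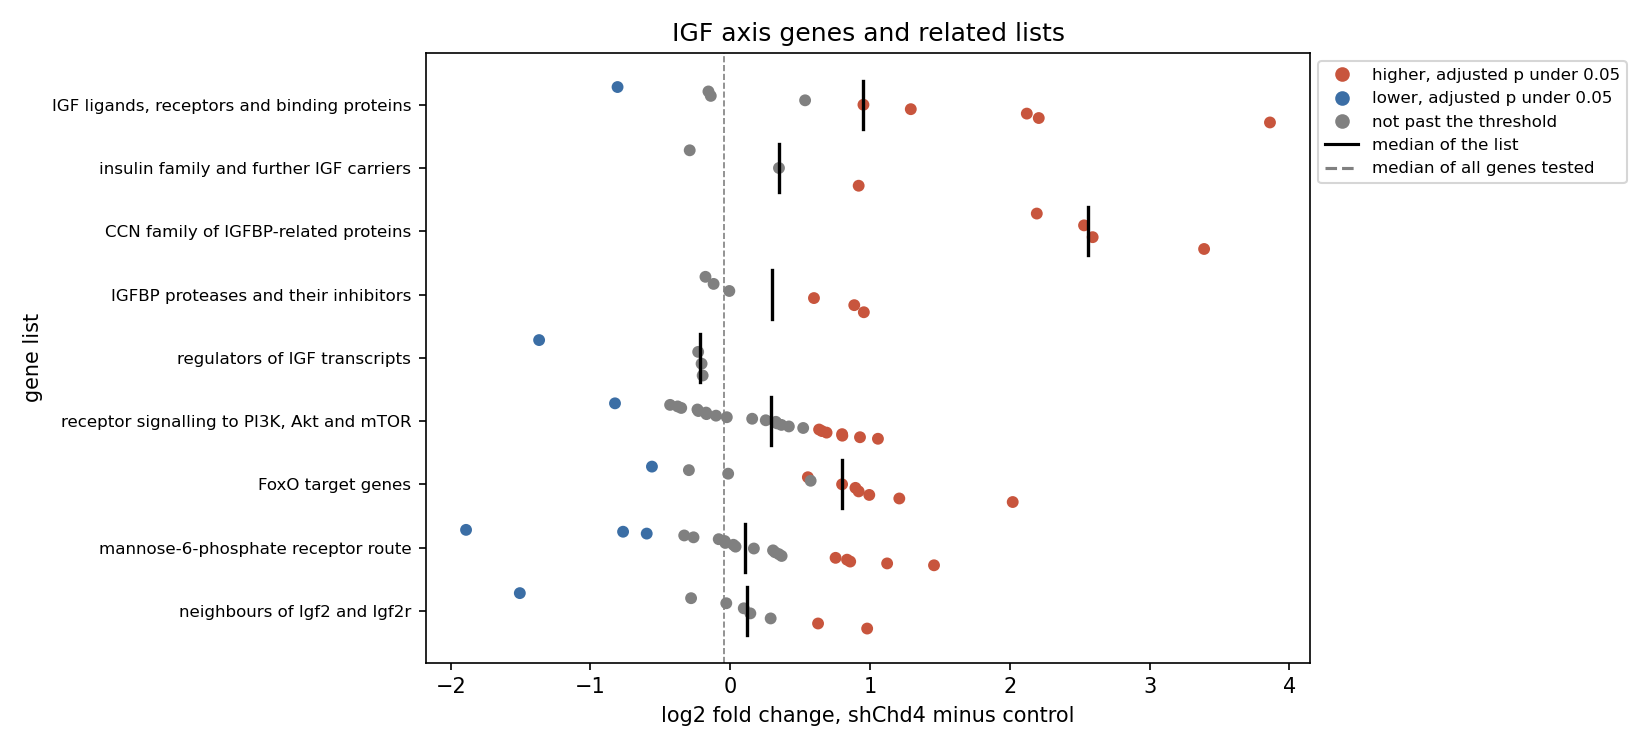
Log2 fold change, shChd4 minus control (horizontal axis), of each tested gene in the IGF axis and in 8 related lists (vertical axis); each point is a gene, black bars are list medians and the dashed line is the median of all genes tested at -0.05. The 4 CCN genes lie between 2.19 and 3.39, and the mannose-6-phosphate route spreads from -1.89 to 1.46.

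The genes whose pattern over the 6 arrays was most like Igfbp7 were Mmp10 (Pearson r = 0.999), Nrp1 (0.998) and Hspb8 (0.998). Those most like Igfbp2 were Coil (r = 1.00), Sall3 (0.998) and Rhebl1 (0.998). These correlations describe 6 arrays that fall into 2 separate groups, whose title codes also differ. Mmp10, Nrp1 and Hspb8 rose by 3.21, 2.47 and 2.60 on the log2 scale, and Coil, Sall3 and Rhebl1 fell by 0.57, 1.74 and 0.84. Without background correction Mmp10 and Nrp1 rose by 1.66 and 1.01 and Sall3 changed by -0.84, all still called. The Coil call was lost without control replicate 2 (limma adjusted p = 0.0516).

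**Figure D5:**
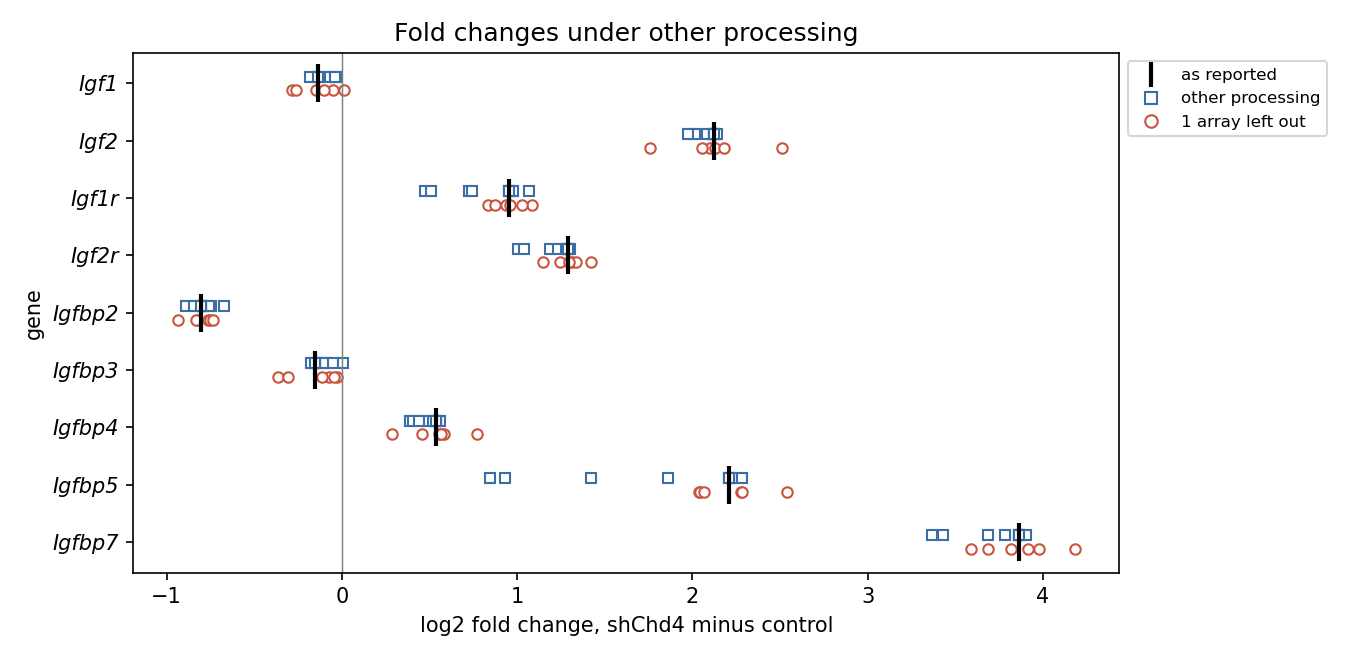
Log2 fold change, shChd4 minus control (horizontal axis), of the 9 tested IGF axis genes (vertical axis) as reported (black bar), under other processing (squares) and with 1 array left out (circles). Igfbp7 stays between 3.37 and 4.18, Igfbp5 spreads from 0.85 to 2.54, and Igf1 and Igfbp3 lie around 0.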

How the data were processed

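Transcript levels of 10 IGF axis genes were measured in 3 control and 3 shChd4 samples. The authors deposited a scanner table with linear intensity and detection p-value columns for 45281 probes, per the file headers. The submitters' processing notes name GenomeStudio. Its intensity values carried no background subtraction or scaling between arrays (medians 110.9 to 118.9). The authors' second intensity table (medians 115.16 to 115.19) served as an alternative; no source used here gives its method.

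Normexp background correction took its background from the detection p-values, 16 was added as an offset, and arrays quantile-normalised on a log2 scale (neqc, limma 3.58.1, R 4.3.3). Probes were named from the platform annotation: 34885 have 1 symbol, 18 several and 10378 are unnamed; 34807 were matched to RefSeq (GRCm38.p6) symbols by Entrez identifier. A gene was represented by its brightest probe and tested if that was detected at p under 0.05 on at least 3 of 6 arrays. Groups were compared with limma (lmFit, eBayes), with Benjamini-Hochberg adjustment over 9808 genes, or over 14610 probes in the probe fit. Arrays have no read depth; their number limits the precision. The steps were tested on simulated arrays. Alternatives were other background, normalisation, filter, probe and variance choices and leaving out each array.

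The members and lists were chosen with earlier results of these data known. Named genes were all members, Chd4, up to 4 genes per related list and 3 per marker list with the smallest p, and the 3 genes most like the largest rise and fall. M6pr, Cdkn1c, Tssc4, Nap1l4, Ascl2, Irs2, Csf1r, the 5 ES cell markers not called, and undetected genes were named outside this rule.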

Additional observations from a re-analysis of the deposited data

How the results depend on the processing

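The 5 rises and the fall of Igfbp2 kept direction and call in every alternative that could test them (16 each, 15 for Igfbp5, which the filter for detection on all 6 arrays removes). Without control replicate 2, Igf1 changed by 0.012 instead of -0.14, Lin28a reversed without control replicate 1 (0.02) or shChd4 replicate 3 (0.13), over a range of -0.50 to 0.13, and Myog without control replicate 1, over a range of -0.47 to 0.0073; none was called. Igfbp3 gave 0.00379 with the mean over its detected probes. Igfbp4 passed with median scaling (0.56) and, leaving out 1 array, ranged from 0.28 to 0.77. Igf1 ranged from -0.28 to 0.012 in the same way, in both the gene and the probe fit. No paired analysis was possible because the labels give no replicate numbers shared between the groups.

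The list medians were recomputed after the data were seen. Without background correction, the median was 0.47 for the IGF axis genes tested (0.51 with the authors' values; 0.84 to 1.09 leaving out 1 array), 1.52 for CCN genes, 0.37 for FoxO targets, 0.076 for proteases, 0.12 for the insulin family and 0.10 for signalling genes. With the authors' values the related lists had 1.63, 0.41, 0.087, 0.13 and 0.12. With an offset of 50 the last 4 were 0.59, 0.14, 0.22 and 0.17. Median scaling gave 0.87 for FoxO targets, 0.48 for the insulin family and 0.014 for the neighbours of Igf2 and Igf2r. Without a detection filter, FoxO targets had 0.26, proteases -0.0066, the insulin family 0.080 and signalling genes 0.16. Both stricter filters gave 0.47 for proteases and 0.63 for the insulin family. The mean over probes gave 0.64 for FoxO targets, and array weights 0.42 for the insulin family. Leaving out 1 array, the medians ranged from 0.67 to 0.89 for FoxO targets, 0.14 to 0.52 for the insulin family and 0.072 to 0.38 for signalling genes; the lowest signalling value came without control replicate 2. The cause of these shifts was not tested. Signal over background limits Igf1, Igfbp6, the Igfbp5 controls and 4 of 5 Igfbp7 probes.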
